A study of Mus musculus with 2 samples.

Results

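The calcineurin-NFAT system was examined in mouse embryonic fibroblasts (MEF) with and without THOC5, a subunit of the THO complex that couples transcription to mRNA processing and export. The members were 8 genes chosen by name: Nfatc1, Nfatc2, Nfatc3, Nfatc4, Nfat5, Rcan1, Rcan2 and Rcan3, out of 28233 genes with a symbol on the array. All 8 had a probe, and 11 probes in total carried one of these names, each 60 bases long and printed as 1 spot. Of these, 10 were called well above background in all 4 channels. The other one, the dimmer Nfatc2 probe, was not well above background in any channel.

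Calcineurin is a phosphatase that is switched on by calcium and calmodulin. It removes phosphates from the NFATc proteins, which then enter the nucleus and bind DNA, often together with AP-1 factors. The Rcan proteins bind calcineurin and restrain it, and Rcan1 is known both as an inhibitor of calcineurin and as a gene that NFAT activates. Nfat5 is the relative that calcineurin does not regulate and is known for the response to high salt. Kinases of the Gsk3, casein kinase and Dyrk families return NFATc proteins to the cytoplasm.

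The cells were an immortalized MEF line of mixed C57BL/6 x B6:129 Ola background with floxed THOC5 alleles (flox/flox) and Rosa26ERT2 Cre, a tamoxifen-activated recombinase expressed from the widely active Rosa26 locus. Control cells, labelled wildtype, carried the same alleles without tamoxifen, and THOC5 depleted cells, labelled THOC5 knockdown, had received tamoxifen for 2 days. Both were serum-starved, and part of each was then stimulated with fetal calf serum (FCS) for 1 h. There was 1 dual-color array per condition. On each array Cy3 marked the unstimulated and Cy5 the serum-stimulated sample, with 0 dye-swapped arrays at hand. Dye and serum, and tamoxifen, culture, array position and THOC5 loss, therefore cannot be told apart, and no test between conditions could be made.

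The error given with each log2 value is the spot error of the scanner software (1 SD of its error model). It was 0.20 for the ratio of a bright spot and 0.34 for the dimmest member probe used. Among probes printed as 10 spots, the spread of log2 ratios was smaller, with a median SD of 0.13 below a signal of 100 and 0.02 above 500 on either array. On each array, 62.1% to 64.4% of 43020 spots were well above background per channel, and no spot was saturated. The Thoc5 signal was 7.08-fold lower in unstimulated and 5.38-fold lower in serum-stimulated THOC5 depleted cells. The log2 ratios of 10 spike-in probes were on average 0.24 higher on the array of THOC5 depleted cells. All 10 of the fibroblast markers examined were well above background in every channel, with a summed signal of 347301 to 470551 over the 4 channels. Single markers differed between the arrays: in unstimulated THOC5 depleted cells the log2 level difference was -1.28 for Pdgfra, -1.13 for Col3a1 and -0.97 for Dcn. These were the lowest of the 10, and the other fibroblast markers ran from -0.41 for Pdgfrb to 0.25 for Thy1. The epithelial marker Epcam had signals of 32.1 and 32.6 in control and, not well above background, 5.32 and 6.44 in THOC5 depleted cells. The log2 serum ratio of Pdgfra was -1.06 in control cells. Of the other markers, 3 of 7 for blood cells (Cd3e, Cd4 and Itgam), 3 of 4 for endothelial, 2 of 4 for epithelial, 1 of 4 for skeletal muscle and 3 of 4 for osteoclasts were above background in all 4 channels. Their summed signals ran from 8768 to 10926 for blood cells, 887 to 1136 for endothelial cells, 94.5 to 187 for epithelial cells, 53.0 to 69.1 for skeletal muscle and 206 to 227 for osteoclasts. Nearly all of the sum for blood cells came from the Itgam and Cd4 probes (6314 to 8700 and 1895 to 2444), whose specificity was not checked. Further markers above background were Pecam1, Cdh5 and Kdr (endothelial), Krt8 and Krt18 (epithelial), Myod1 (muscle), and Acp5, Ctsk and Oscar (osteoclasts). Other listed markers (Cd3g, Cd79a, Tek, Cdh1, Myog and Calcr) were not well above background in any channel, and the remaining 5 (Ptprc, Emr1, Epcam, Ckm and Des) were so in 1 or 2 channels. The part of other cells in the values below was not tested.

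Upstream sequence is shown for Rcan1 and Nfatc2, the 2 members whose brightest probe was past 2-fold with serum in control cells. RefSeq promoter windows (GRCm38.p6, 250 bases before to 50 bases after a start) were matched by symbol for 7 of the 8 members, 12 windows in all. They were searched on both strands for the NFAT core GGAAA, the AP-1 motif TGACTCA and the cyclic AMP response element TGACGTCA, and matches are in capitals. A match is a description of the letters and not a bound site. The array probes were not placed on this build. The windows are those of the downstream and the upstream start of Rcan1 (chr16:92400029-92400328 and chr16:92466120-92466419, minus strand) and of the downstream and the upstream start of Nfatc2 (chr2:168590316-168590615 and chr2:168601608-168601907, minus strand).
Rcan1 downstream: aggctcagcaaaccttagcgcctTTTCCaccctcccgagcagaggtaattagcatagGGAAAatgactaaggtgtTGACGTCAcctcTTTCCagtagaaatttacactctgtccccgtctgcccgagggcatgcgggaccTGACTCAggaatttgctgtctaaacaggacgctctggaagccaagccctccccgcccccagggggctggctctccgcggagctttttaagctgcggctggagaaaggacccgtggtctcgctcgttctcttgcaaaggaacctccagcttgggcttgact
Rcan1 upstream: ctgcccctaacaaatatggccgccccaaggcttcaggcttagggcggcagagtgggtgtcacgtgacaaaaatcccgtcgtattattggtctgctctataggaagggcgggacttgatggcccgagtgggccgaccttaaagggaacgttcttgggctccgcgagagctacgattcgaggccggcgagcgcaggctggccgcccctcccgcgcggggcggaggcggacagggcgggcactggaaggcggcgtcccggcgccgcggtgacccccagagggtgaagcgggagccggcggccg
Nfatc2 downstream: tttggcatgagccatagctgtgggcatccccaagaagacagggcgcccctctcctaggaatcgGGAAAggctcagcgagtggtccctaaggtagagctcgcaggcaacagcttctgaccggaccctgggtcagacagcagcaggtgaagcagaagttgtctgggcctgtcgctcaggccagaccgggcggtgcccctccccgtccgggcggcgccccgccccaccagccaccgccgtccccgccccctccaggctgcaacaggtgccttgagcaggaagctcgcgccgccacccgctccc
Nfatc2 upstream: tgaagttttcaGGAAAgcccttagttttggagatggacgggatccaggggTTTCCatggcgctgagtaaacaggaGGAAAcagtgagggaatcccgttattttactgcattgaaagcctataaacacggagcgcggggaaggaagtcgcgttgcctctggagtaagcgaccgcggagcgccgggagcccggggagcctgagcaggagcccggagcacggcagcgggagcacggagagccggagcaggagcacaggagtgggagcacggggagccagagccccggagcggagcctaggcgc

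The downstream Rcan1 window, which belongs to the shorter isoform known as an NFAT target, held 3 NFAT cores, 1 AP-1 motif and 1 cyclic AMP response element, at first bases -227, -193 and -163, -110, and -175 from the start. The upstream Rcan1 window held none of these motifs. At least 3 NFAT cores were present in 9.42% of 32851 promoter windows of this length, an AP-1 motif in 5.20% and a cyclic AMP response element in 1.79%. All 3 motifs together were found in 9 windows, 0.0274% of the total, the downstream Rcan1 window among them. The Nfatc2 windows held 1 and 3 NFAT cores and neither of the other motifs. The window of Nfatc4, whose log2 serum ratio in control cells was -0.45, also held 3 NFAT cores. At least 1 NFAT core was present in 8 of the 12 member windows, and in 61.3% of all windows, so its presence alone does not set the members apart. The other AP-1 match was in 1 of the 3 Rcan2 windows.

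Rcan1 showed the highest serum ratio of the family on both arrays. In control cells its lead over the dimmer Nfatc1 probe (log2 2.49 ± 0.22) was smaller than the spot error. The Rcan1 signal in control cells was 1185 without serum and 6938 after 1 h of serum, a ratio of 5.85 (log2 2.55 ± 0.20). In THOC5 depleted cells the signal was 933 without and 3418 with serum, a ratio of 3.66 (log2 1.87 ± 0.20). The gene was thus well above the 2-fold limit on both arrays, ranking 75 of 25448 probes in control and 52 of 25069 in THOC5 depleted cells. The serum ratio was 1.60-fold lower in THOC5 depleted cells, a log2 difference of -0.68 ± 0.29. This direction depends on the scale: when the log ratios of both arrays were brought to one SD, the difference was 0.26. The SD was 0.46 in control and 0.30 in THOC5 depleted cells. Bringing both to one value also takes out any array-wide weaker serum response, so it cannot decide the direction. Under the other background and dye corrections the difference ran from -0.75 to -0.66. The probe lay on chromosome 16 of mm9 from 92392763 to 92392822 and reads both RefSeq transcripts of the gene, so it does not tell the products of the 2 starts apart.

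The relatives Rcan2 and Rcan3, which also bind and inhibit calcineurin, had signals that were slightly lower or similar after serum. For Rcan2 (chromosome 17, 44176406 to 44176465), the signal went from 384 to 332 in control and from 396 to 381 in THOC5 depleted cells, log2 ratios of -0.21 ± 0.20 and -0.05 ± 0.20. For Rcan3 (chromosome 4, 134968695 to 134968754), it went from 309 to 232 in control and from 245 to 225 in THOC5 depleted cells, log2 ratios of -0.42 ± 0.21 and -0.13 ± 0.21. Neither gene passed 2-fold on either array, and the ratios of the 2 arrays differed by 0.15 and 0.29, which is no more than the error of 0.29 on such a difference.

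**Figure D1:**
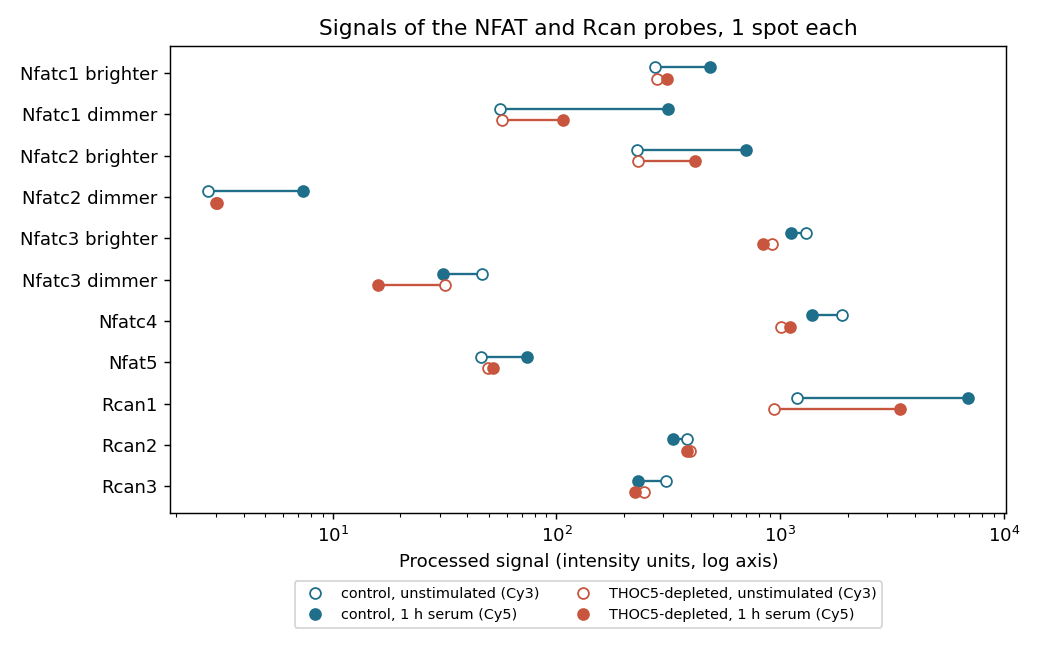
Processed signals of the 11 probes (x axis, intensity units, log axis) in control cells (blue) and THOC5 depleted cells (red), open circles unstimulated and filled circles after 1 h of serum, 1 spot each. The long lines of Rcan1 and of the dimmer Nfatc1 probe are shorter in THOC5 depleted cells, where the filled circles lie further to the left. The signals are not scaled between the arrays. Over all probes the median log2 difference, THOC5 depleted minus control, was -0.25 unstimulated and -0.26 with serum.

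Nfatc2 is the NFAT best known for cytokine genes in T cells. Its brighter probe read 228 without serum and 706 with serum in control cells, a ratio of 3.097 (log2 1.63 ± 0.21). In THOC5 depleted cells it read 233 and 418, a ratio of 1.80 (log2 0.84 ± 0.21), below 2-fold. The serum ratio was 1.73-fold lower in THOC5 depleted cells (log2 difference -0.79 ± 0.29), and 1.21-fold lower with the log ratios of both arrays at one SD (-0.27). This probe lay on chromosome 2 from 168301974 to 168302033. The dimmer Nfatc2 probe shared no RefSeq transcript with it and read 2.78 and 7.33 in control and 3.04 and 2.99 in THOC5 depleted cells. With all 4 values not well above background, no ratio is given for it.

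Nfatc3 and Nfatc4 did not pass 2-fold with serum on either array in the processed signals. The brighter Nfatc3 probe (chromosome 8, 108654316 to 108654375) read 1299 and 1117 in control and 917 and 842 in THOC5 depleted cells, log2 ratios of -0.22 ± 0.20 and -0.12 ± 0.20. The dimmer Nfatc3 probe (chromosome 8, 108615965 to 108616024) read 46.2 and 31.0 in control and 31.6 and 16.0 in THOC5 depleted cells, log2 ratios of -0.58 ± 0.26 and -0.99 ± 0.34. The dimmer probe was at -1.04 in THOC5 depleted cells, past 2-fold lower, with centred signals without LOWESS, and at -1.22 with the log ratios at one SD. It was at -0.23 and -0.32 after normexp and loess, and all 4 of its signals were below a floor of 50, with which no ratio can be read. The 2 probes differed by -0.36 ± 0.33 in control and -0.86 ± 0.39 in THOC5 depleted cells. After normexp and loess this gap was -0.07 and -0.25. Nfatc4 (chromosome 14, 56452542 to 56452601) had a signal of 1887 without and 1386 with serum in control cells, a log2 ratio of -0.45 ± 0.20. It was 1009 without and 1104 with serum in THOC5 depleted cells, a log2 ratio of 0.13 ± 0.20. The ratios lay on either side of 0 and differed by 0.58 ± 0.29, and the value in THOC5 depleted cells was within its error of 0.

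Nfat5 (chromosome 8, 109882604 to 109882663) had a signal of 46.0 without and 74.1 with serum in control cells, a ratio of 1.61 (log2 0.69 ± 0.22). In THOC5 depleted cells the signal was 49.6 and 52.1, a ratio of 1.05 (log2 0.07 ± 0.23). The difference was -0.62 ± 0.32, and neither ratio passed 2-fold. After normexp and loess, the control value was 0.37 and the difference -0.36.

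Nfatc1, the factor needed for heart valves and osteoclasts, was read by 2 probes that gave different serum ratios. The brighter one (chromosome 18 of mm9, 80803664 to 80803723, described as transcript variant 2) read 276 without and 488 with serum in control and 282 and 312 in THOC5 depleted cells. Its ratios were 1.77 (log2 0.82 ± 0.20) and 1.11 (log2 0.15 ± 0.20). The dimmer one (80845439 to 80845498, transcript variant 1) read 55.9 and 314 in control and 57.1 and 106.6 in THOC5 depleted cells. Its ratios were 5.62 (log2 2.49 ± 0.22) and 1.87 (log2 0.90 ± 0.22). The dimmer probe was thus past 2-fold in control cells, and the brighter one was below 2-fold on both arrays.

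The 2 Nfatc1 probes start 41775 bases apart and share 0 RefSeq transcripts. The brighter one reads 4 transcripts and the dimmer one reads 2. The gene is known to use alternative promoters and alternative polyadenylation sites that give short and long proteins. The dimmer probe exceeded the brighter one by 1.67 ± 0.30 in log2 ratio in control and by 0.76 ± 0.30 in THOC5 depleted cells. The median range between probes of the same gene was 0.17 over 3777 genes with more than 1 probe above background in all 4 channels, and 15 of these genes (0.397%) had a range at least as large as Nfatc1 in control cells. The genes were not matched to Nfatc1 in serum response or brightness, so this share is a description only. It was computed for the processed signals alone. After loess of normexp-corrected signals (offset 50), the log2 ratios of the dimmer probe were 1.80 and 0.55 and its fold reduction was 2.37. The gap between the probes was then 1.00 in control and 0.38 in THOC5 depleted cells. In the processed signals, the serum ratio was reduced 3.01-fold for the dimmer probe and 1.60-fold for the brighter one. These are log2 differences of -1.59 ± 0.31 and -0.68 ± 0.29. With the log ratios of both arrays at one SD, the fold reductions were 1.86 and 1.40. No promoter window was matched for Nfatc1. Whether the probes lie in coding exons or untranslated regions was not read here.

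**Figure D2:**
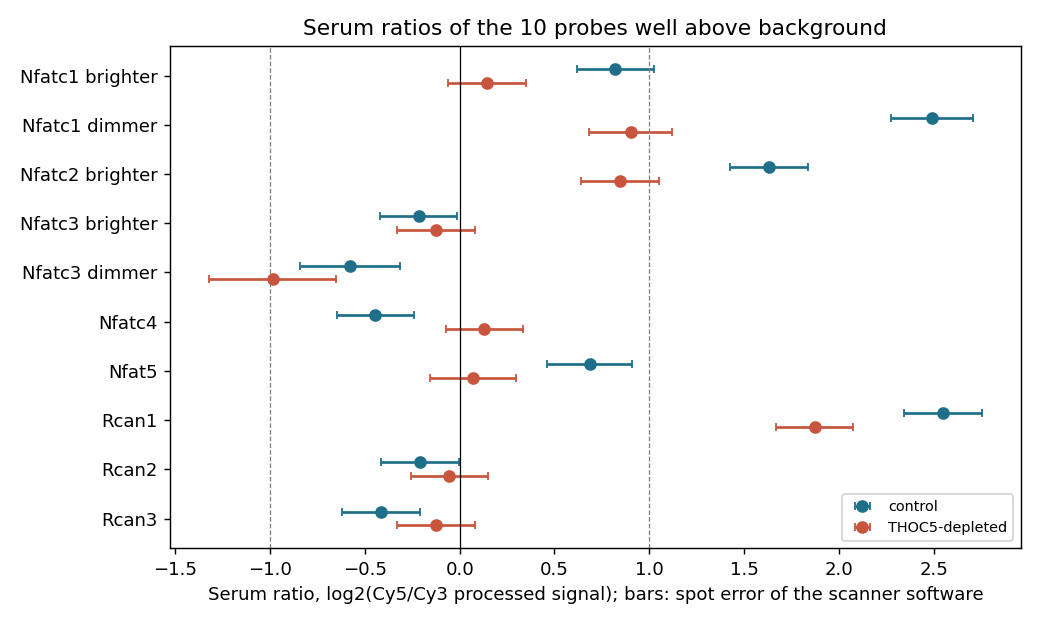
Serum ratios (x axis, log2 of Cy5 over Cy3 processed signal) of the 10 probes well above background in control (blue) and THOC5 depleted cells (red), with the spot error of the scanner software as bars and dashed lines at 2-fold. Rcan1, the dimmer Nfatc1 probe and the brighter Nfatc2 probe lie beyond 2-fold in control cells, and Rcan1 alone does so in THOC5 depleted cells.

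Counted together, 3 of the 10 probes were at least 2-fold higher with serum in control and 0 were 2-fold lower, against 2.52% and 1.76% of all 25448 probes tested. In THOC5 depleted cells 1 was 2-fold higher and 0 were 2-fold lower, against 0.806% and 0.367% of 25069 probes. The median log2 ratio of the members was 0.24 in control and 0.10 in THOC5 depleted cells. That of all probes was -0.02 on both arrays. The difference in log2 ratio, THOC5 depleted minus control, had a median of -0.51 over the members and -0.00297 over all probes. The members' median was -0.13 with the log ratios of both arrays at one SD and -0.22 after normexp and loess. One member probe, the dimmer one of Nfatc1, had a ratio at least 2-fold lower in THOC5 depleted cells and 0 had one 2-fold higher, against 1.25% and 0.888% of 24332 probes.

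All 5 member probes with a ratio above 1 in control cells had a lower ratio in THOC5 depleted cells, and of the 5 with a ratio below 1, 4 had a higher one. The split uses the control ratio that also enters the difference, which by itself moves values this way. Over all probes split in the same manner, 77.7% of 11527 had a lower and 74.1% of 12804 a higher ratio, so these member counts are a description only. Split instead on the ratio in THOC5 depleted cells, 43.7% of 11190 probes above 1 had a lower ratio there than in control. Of 13142 probes below 1, 43.8% had a higher one. Among the members, 5 of the 6 probes above 1 in THOC5 depleted cells had the lower ratio there, again a description only. Without dye normalization, the control ratios of Rcan2, Rcan3, Nfatc3 and Nfatc4 were above 0 (log2 0.51, 0.30, 0.60 and 0.43) but below the median of all probes, which was then 0.83. Of 612 probes at least 2-fold higher with serum in control cells, 96.1% had a lower ratio in THOC5 depleted cells, with a median fold reduction of 1.86 and quartiles of 1.51 and 2.47. These too were selected on the control ratio. Selected instead on the array of THOC5 depleted cells, 183 probes were at least 2-fold higher, of which 68.3% had the lower ratio there, with a median fold reduction of 1.38. The fold reductions of Rcan1 (1.60) and Nfatc2 (1.73) lay between the lower quartile and the median of the 612 probes, and that of the dimmer Nfatc1 probe (3.01) lay above the upper quartile. When the log ratios of both arrays were brought to one SD, 4 of the 5 probes had a lower ratio in THOC5 depleted cells, and Rcan1 did not. The share was then 66.3% among all probes with a control ratio above 1.

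**Figure D3:**
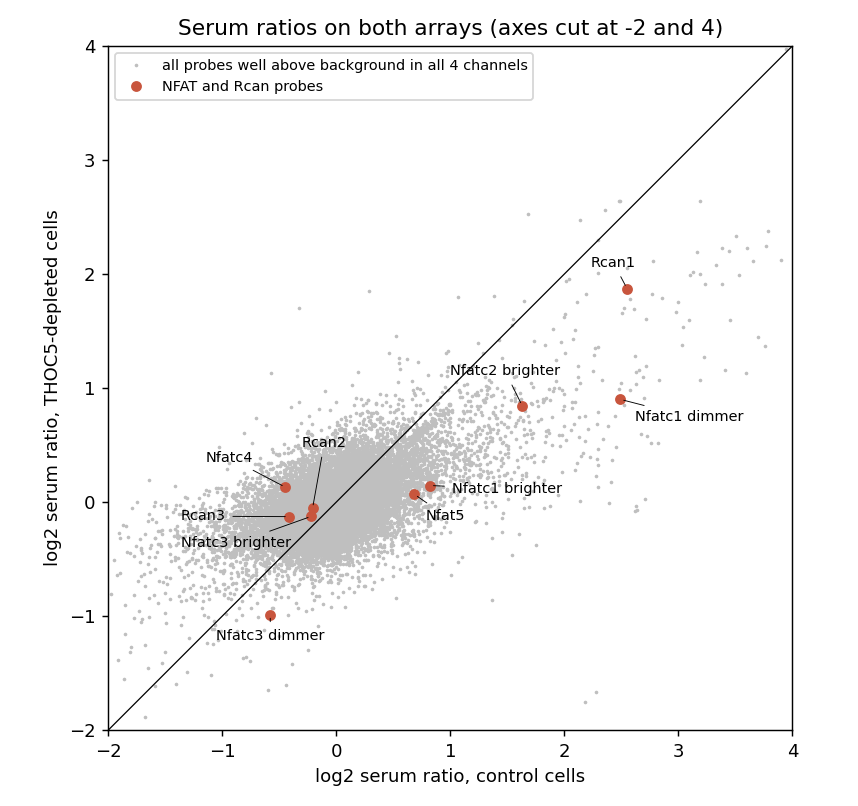
Log2 serum ratio in control cells (x axis) against THOC5 depleted cells (y axis), grey points all probes well above background in all 4 channels, red points the member probes, and the line of equal ratios. Rcan1, Nfatc2, Nfat5 and both Nfatc1 probes lie below the line in the part of the plot where most serum-induced probes also lie below it.

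To see which sample carried these differences, the levels were compared between the arrays after quantile normalization of the mean signals (Aquantile). Without serum, none of the 10 probes differed 2-fold, 0 higher and 0 lower, against 3.11% and 3.39% of 25846 probes. The log2 differences, THOC5 depleted minus control, ran from -0.60 for Nfatc4 to 0.30 for Rcan2, with a median of 0.09. Rcan1 was nearly equal in unstimulated cells, at -0.03 ± 0.20.

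After serum, 1 probe, the dimmer one of Nfatc1, was 2.59-fold lower in THOC5 depleted cells and 0 were 2-fold higher, against 3.19% lower and 3.55% higher among 25205 probes. Its log2 difference was -1.37 ± 0.21. Rcan1 was 1.63-fold lower (log2 -0.71 ± 0.20), and the brighter Nfatc2 probe was 1.43-fold lower (log2 -0.51 ± 0.20). Nfat5 (-0.36 ± 0.22) and the brighter Nfatc1 probe (-0.39 ± 0.20) were also lower after serum. The differences of these 5 probes without serum ran from -0.03 to 0.29. They are the probes with a ratio above 1 in control cells, so their control serum signal was high by selection, and the lower values after serum in part restate it. Nfatc4 was the reverse, at -0.60 ± 0.20 in unstimulated cells and -0.02 ± 0.20 after serum. The dimmer Nfatc3 probe was at -0.40 ± 0.25 and -0.81 ± 0.35. Without scaling, the signals of THOC5 depleted cells were lower by a median log2 of -0.25 (unstimulated) and -0.26 (serum), and Rcan1 after serum was then at -1.02.

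**Figure D4:**
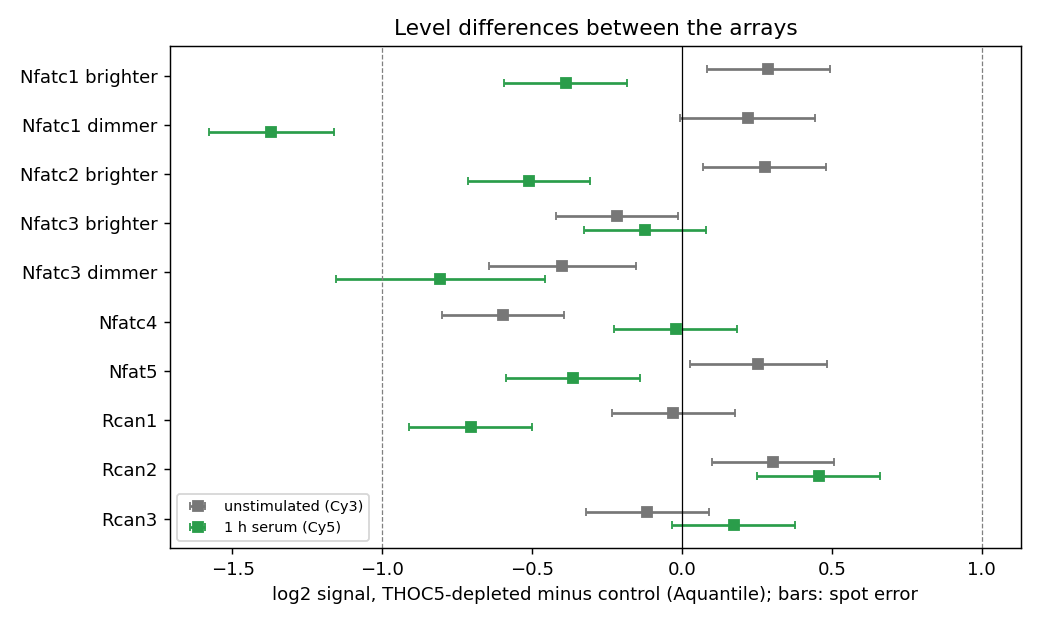
Log2 signal of THOC5 depleted minus control cells (x axis) in unstimulated cells (grey) and after 1 h of serum (green) for the 10 probes, with spot error bars and dashed lines at 2-fold. The dimmer Nfatc1 probe after serum is the one value beyond 2-fold, and Nfatc4 is lower in unstimulated cells only.

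The other parts of the pathway were read from lists of its genes, with the brightest probe of each gene. Across all genes, 2.64% were 2-fold higher and 1.73% 2-fold lower with serum in control cells (18770 genes), and 0.944% and 0.378% in THOC5 depleted cells (18532 genes). The medians were -0.02 and -0.01. None of the 4 calcineurin subunits tested, the 3 calmodulin genes, the 10 genes of calcium entry and release, the 8 NFAT kinases, the 7 other calcineurin inhibitors and scaffolds and the 7 osmotic targets of NFAT5 passed 2-fold in either direction on either array. Their list medians lay between -0.05 and 0.14 in control and between -0.14 and 0.12 in THOC5 depleted cells. The catalytic subunit gene Ppp3ca had log2 ratios of -0.30 and -0.03, the regulatory subunit gene Ppp3r1 0.39 and 0.46, and the kinase gene Dyrk1a 0.47 and 0.13. By the same rule of the brightest probe per gene, Rcan1 and Nfatc2 were the members past 2-fold in control cells, and Rcan1 in THOC5 depleted cells.

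The AP-1 genes, whose proteins bind DNA with NFAT, moved more. Of 8 tested, 6 were 2-fold higher in control cells (Fos, Fosb, Fosl1, Fosl2, Jun and Junb), with log2 ratios of 5.71, 4.31, 1.89, 1.37, 1.54 and 3.60. In THOC5 depleted cells 4 were (Fos, Fosb, Jun and Junb), at 6.55, 4.26, 1.55 and 2.23, while Fosl1 was at 0.74 and Fosl2 at 0.65. No AP-1 gene was 2-fold lower.

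Of the textbook NFAT target genes, 10 could be tested in control and 12 in THOC5 depleted cells. In control cells 6 were 2-fold higher: Csf2, the gene of the growth factor GM-CSF (log2 5.27), Egr2 (5.49), Nr4a1 (5.43), Ptgs2 (3.79), Egr3 (at least 2.37, its unstimulated signal not being well above background) and Il6 (1.15). Csf2, Egr2, Nr4a1 and Ptgs2 remained 2-fold higher in THOC5 depleted cells, at 2.88, 4.62, 4.43 and 2.38, while Egr3 was at 0.97, again a lower bound, and Il6 at 0.71. None was 2-fold lower. Il4, Ifng and Tnf were not well above background in any channel. Many of these genes are also known serum response genes, so the list is not specific to NFAT.

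**Figure D5:**
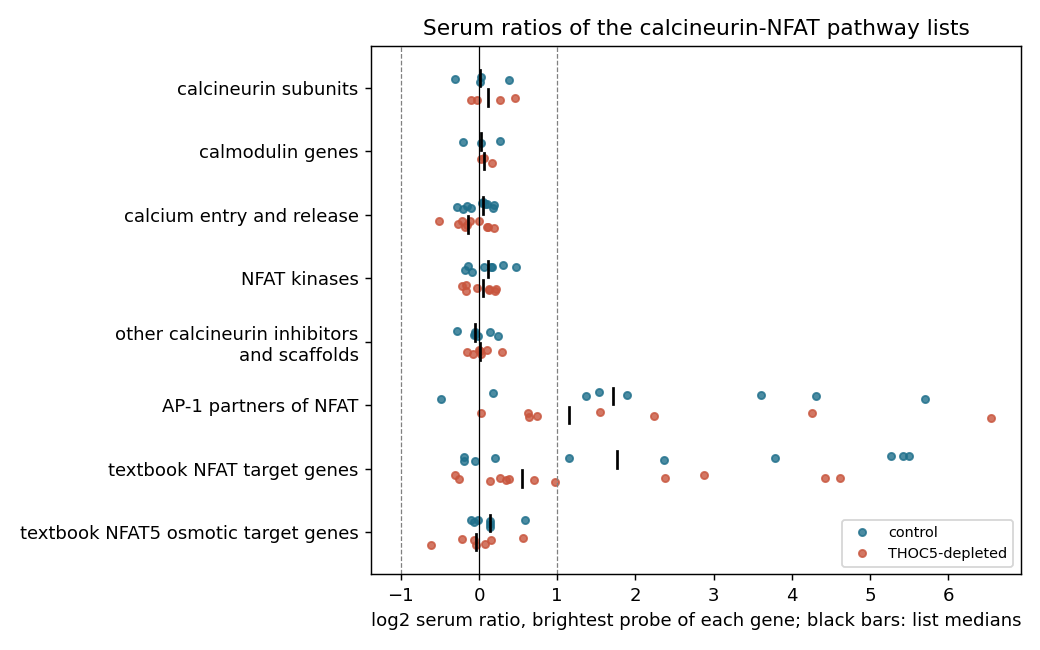
Log2 serum ratio of each gene tested (x axis, brightest probe) by list, control in blue and THOC5 depleted in red, with black bars at the list medians and dashed lines at 2-fold. The AP-1 genes and the NFAT target genes hold all the values beyond 2-fold.

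The genes with the pattern most like Rcan1, by distance over the log2 ratios of the 2 arrays among 17201 genes, were Eid3, Atf3, Nppb, Tnfaip3 and Cyr61, at distances of 0.18 to 0.23. Their ratios ran from 5.70 to 6.84 in control and from 3.15 to 4.16 in THOC5 depleted cells, around those of Rcan1. Nearest to the brighter Nfatc1 probe were Slc25a33, Aldh1a3, Gm9523, Ctdp1 and Baz1a, with ratios of 1.74 to 1.76 and 1.09 to 1.12. Those distances were at most 0.02, below the spot error, and with 2 arrays many genes lie as close.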

How the data were processed

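RNA was measured on 2 dual-color arrays on one slide, 1 for control and 1 for THOC5 depleted cells. Per the file headers, the deposited processed signals are intensities from Agilent Feature Extraction 10.7.3.1 after background subtraction and linear and LOWESS dye normalization within the array. The deposited scanner log ratio is a log10 of Cy5 over Cy3. The authors also deposited a series table of log10 ratios that holds 0 negative values. It equals the size of the scanner ratio within 1e-06 for 85.1% and 86.3% of features. The table has lost the sign, and was used as an alternative with the scanner's sign. The number of columns without a sample was 0.

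From these, outlier spots were left out and log2 ratios were computed per probe without a floor. A probe was tested if at least 1 of the 2 channels was well above background. Where only 1 was, the other was raised to the lowest signal well above background, which makes the ratio a bound. The limit was 2-fold. Levels were compared between arrays after Aquantile (limma 3.58.1, R 4.3.3). A gene's value is that of its brightest probe, the one with the highest mean log2 signal over the 4 channels. Named are the 8 members with all probes, Thoc5, the 5 nearest genes of Rcan1 and of the brighter Nfatc1 probe, and list genes past 2-fold. Genes given beyond these were chosen after their values were seen. The members and lists were chosen with earlier results of these data known. One listed marker of blood cells is not reported here. The steps were tested on simulated data. Python 3.11.15 with numpy 2.4.6, pandas 2.3.3 and matplotlib 3.10.9 was used. Probe positions are those of mm9 in the files.

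Alternatives were other background and dye corrections, the series table, other filters on dim probes, a floor of 50, outlier spots kept, limits of 1.5-fold and 4-fold, 1 probe per gene, and other scalings. Centring of the signals without LOWESS was added after seeing the data. With 1 array per condition no replicate could be left out, and precision is limited by this number.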

Additional observations from a re-analysis of the deposited data

Results flagged for a closer look

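Nfatc4 had serum log2 ratios on opposite sides of 0 in the 2 conditions, -0.45 in control and 0.13 in THOC5 depleted cells. Each is 1 array, the difference was not tested, and the value in THOC5 depleted cells was smaller than its spot error of 0.20. Without dye normalization both were above 0, at 0.43 and 0.89, while the median of all probes was then shifted to 0.83 and 0.74.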

How the results depend on the processing

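No paired analysis was possible because each condition had 1 array. The number of member probes past 2-fold with serum (3 in control and 1 in THOC5 depleted cells) became 5 and 3 without dye normalization, which shifts the median of all log2 ratios to 0.83 and 0.74 and puts 30.1% and 15.5% of all probes past 2-fold. With those signals centred, an alternative chosen after seeing the data, the count in THOC5 depleted cells was 2, Rcan1 higher and the dimmer Nfatc3 probe lower. Of all probes, 1.16% were then past 2-fold in these cells, and 0.351% were 2-fold lower. At 1.5-fold the counts were 5 and 4, with 5 ratios that differed between arrays, 1 level that differed in unstimulated cells and 3 after serum. The shares of all probes past 1.5-fold were 12.5%, 5.10%, 8.68%, 15.1% and 16.1%. At 4-fold, control cells had 2, THOC5 depleted cells had 0, and 0 ratios differed between arrays, against 0.754%, 0.183% and 0.197% of all probes. The 1 ratio that differed 2-fold between arrays became 0 with 1 probe per gene or with the log ratios at one SD, and 2 with no filter on dim probes. Of all probes, 2.14% differed 2-fold in the processed signals and 1.18% with the log ratios at one SD. The 1 level that differed after serum became 0 with 1 probe per gene, 2 without scaling and 2 with no filter on dim probes. For these differences between arrays, shares of all probes were not computed with 1 probe per gene, without scaling or without the filter. The gap between the Nfatc1 probes became 1.00 and 0.38 after normexp and loess. Of 240 single-gene values under the alternatives, 138 equalled the reported value within 1e-05 and say nothing of stability. Of the other 102, 68 moved by less than the spot error and 34 by more, and 0 past 2-fold changed sign. These values are the serum ratios and level differences of each gene, by its brightest probe or the mean of its probes. They leave out single dimmer probes, differences in serum ratio between the arrays and the scaling to one SD. Under that scaling the Rcan1 difference changed sign. Dim probes such as Nfat5, the dimmer Nfatc3 and the dimmer Nfatc1 are limited by their signal over background.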

Other observations

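A further probe on the array is described as Nfatc3 but carries another identifier as its name (mm9, chromosome 8, 108643263 to 108643322). It was well above background in all 4 channels and read 49.3 without and 44.4 with serum in control cells, and 46.9 and 31.5 in THOC5 depleted cells. Its log2 ratios were -0.15 and -0.58.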
